A study of Homo sapiens with 3 samples.

Results

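The clustered protocadherin genes are 53 protein-coding genes that lie side by side on the long arm of chromosome 5, in an alpha cluster of 15 genes, a beta cluster of 16 and a gamma cluster of 22. They were chosen by symbol, after the deposited transcripts had been matched to the GENCODE v44 annotation of GRCh38 (hg38) and their counts summed per gene, and they are 53 of 61193 genes and of 19926 protein-coding genes. RNA was measured in HEK293T, an established line from human embryonic kidney that expresses the large T antigen of SV40, 24 h after seeding. There were 3 replicates, which the study describes as independent biological replicates, and a single condition without treatment, so the comparisons are between genes and clusters within each library. Each QuantSeq 3′ mRNA library was made from 2 µg of RNA by oligo(dT) priming, so that its reads start near the 3′ ends of polyadenylated RNAs. The sample labels state genomic DNA as the material, whereas the study's methods state total RNA. The libraries held 7019253, 6262175 and 8521624 counted reads in replicates 1, 2 and 3, and mitochondrial genes took 9.59%, 5.70% and 25.8% of them. The cells matched their label in part. Nephric lineage markers were detected for 4 of 5 genes. Of 4 genes listed as epithelial 3 were detected, and KRT18 had 0 counts. Most of their reads were on CDH2, the N-cadherin gene, with 480, 451 and 539 counts, against 17, 8 and 27 for KRT8 and 6, 4 and 4 for EPCAM. Blood markers had 0 counts for 3 of 3 genes, and of adipocyte markers 0 of 4 were detected. Of 5 neural markers 2 were detected, INA and RBFOX3, with NEFL and NEFM at 0, and of 4 fibroblast markers COL1A1 alone.

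Clustered protocadherins are cell surface proteins of the cadherin superfamily, known above all from neurons, where each cell uses its own small set of them and contacts between like sets let a neuron recognise its own branches. In the alpha and gamma clusters each gene has a promoter and 1 large variable exon of its own, which encodes the extracellular, transmembrane and first cytoplasmic part of the protein, and is spliced to constant exons at the far end of the cluster. A beta gene is a single large exon without constant exons, and therefore has a 3′ end of its own. The choice of promoter involves the factor CTCF and the cohesin ring, which brings a chosen promoter to distant enhancers.

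The locus spanned 726842 bases, chr5:140786136-141512977, with every member on the plus strand. The alpha members lay within chr5:140786136-141012347, the beta members within chr5:141051374-141249365 and the gamma members within chr5:141330514-141512977. The canonical transcripts of the 15 alpha members all ended in the same 3 constant exons of 59, 89 and 2721 bases, and those of the 22 gamma members in another 3 of 59, 89 and 2029 bases. The first and second constant exons of each cluster are shown because all canonical alpha or all canonical gamma transcripts have them in common (hg38, plus strand). The alpha exons lie at chr5:140978949-140979007 and chr5:140982475-140982563, the gamma exons at chr5:141494807-141494865 and chr5:141505393-141505481.
alpha constant exon 1: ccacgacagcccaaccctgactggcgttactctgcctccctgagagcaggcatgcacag
alpha constant exon 2: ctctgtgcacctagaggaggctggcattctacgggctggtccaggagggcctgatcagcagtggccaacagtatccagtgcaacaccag
gamma constant exon 1: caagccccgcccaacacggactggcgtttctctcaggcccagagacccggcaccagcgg
gamma constant exon 2: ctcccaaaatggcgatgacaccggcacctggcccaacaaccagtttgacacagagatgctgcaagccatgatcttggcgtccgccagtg

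In HEK293T cells 26 of the 53 members had at least 1 read in any replicate and 27 had none. A member was called detected with over 3 counts in every replicate, since a count of 0 allows up to 3. By this rule 3 members were detected, the gamma genes PCDHGA11, PCDHGA1 and PCDHGA6. On the TPM scale a single member, PCDHGA11, reached a mean of 1, where TPM is the count divided by transcript length and scaled to 1000000 per library. Over all protein-coding genes 63.5% had at least 1 count in any replicate, 39.5% were detected and 38.2% reached a mean of 1 TPM, against 49.1% with a count and 5.66% detected among the members. At the length of the canonical transcripts, 3 counts equalled 0.0715 to 0.149 TPM for alpha members, 0.0548 to 0.285 for beta members and 0.0927 to 0.171 for gamma members. These limits, and the intervals below, cover counting error alone. The study's methods do not mention molecular identifiers, which would mark PCR copies. For alpha and gamma members the reads lay on transcripts other than the canonical ones, as described below, so their limits differ with length. The PCDHA10 transcript with reads, of 12358 bases, had 0.0713 TPM at 4 counts in replicate 1.

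PCDHGA11 (ENSG00000253873, chr5:141421047-141512975) was the member with the highest level. It had 42, 49 and 41 counts in replicates 1, 2 and 3, equal to 2.55, 3.52 and 1.69 TPM (mean 2.59 ± 0.913 TPM, SD, n = 3). Its lowest replicate lay above the highest replicate of every other member, which was 0.705 TPM in PCDHGA1. Even so its mean TPM stood only at the percentile 69.4 of all protein-coding genes. It alone held 44.7% of the reads on members in replicate 1 (95% Wilson interval 35.04 to 54.74%), 49.0% in replicate 2 (39.4 to 58.7%) and 30.1% in replicate 3 (23.1 to 38.3%). Within the gamma cluster its share of the reads was 65.6%, 57.0% and 47.7%.

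**Figure D1:**
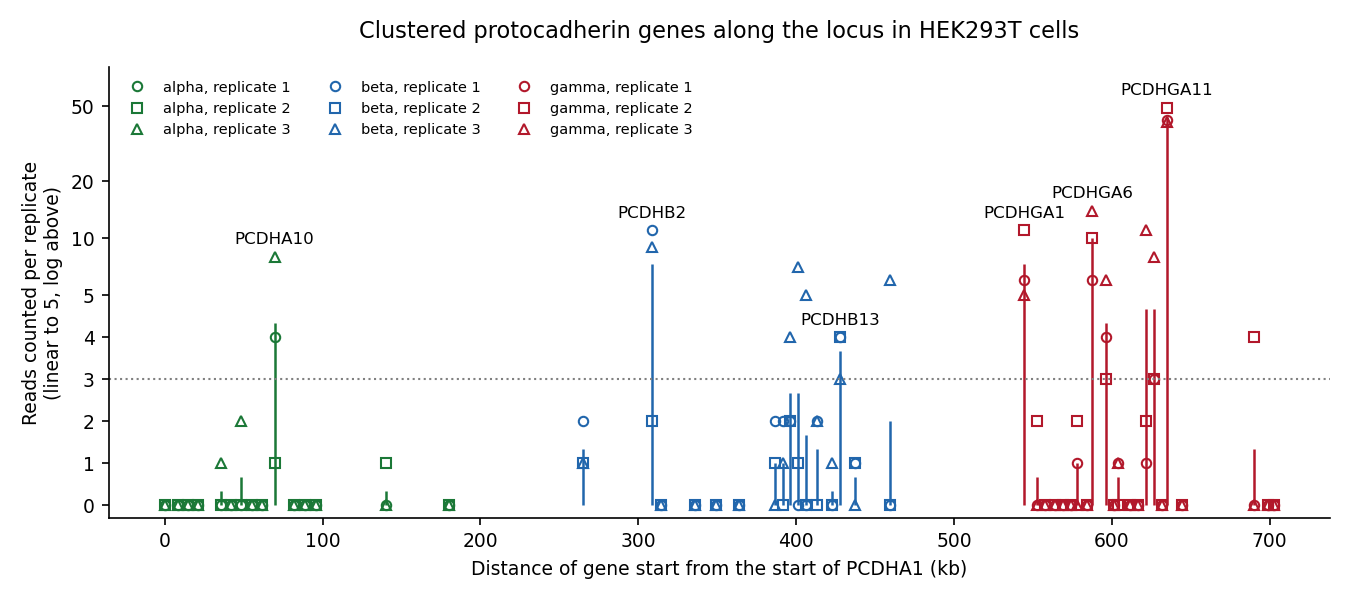
Reads counted in each replicate (y axis, linear to 5 and logarithmic above, points by replicate, stems at the mean) for the 53 members by the distance of their start from that of PCDHA1 in kb (x axis), with a dotted line at 3 counts. PCDHGA11 stands at 41 to 49 reads, and no other member has more than 14 in any replicate.

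The other gamma members were below 1 TPM in each replicate. PCDHGA1 had 6, 11 and 5 counts (0.325, 0.705 and 0.184 TPM), with its highest value in replicate 2. PCDHGA6 had 6, 10 and 14 counts (0.234, 0.462 and 0.372 TPM), and its range lay within that of PCDHGA1. Below these 2 came members with reads in every replicate that missed the limit of 3 in at least 1 of them. PCDHGA7 had 4, 3 and 6 counts (mean 0.262 ± 0.019 TPM, SD, n = 3). PCDHGA10 had 3, 3 and 8 counts, and PCDHGB6 had 1, 2 and 11. PCDHGB6 was thus high in replicate 3 alone. PCDHGA2, PCDHGA5 and PCDHGA8 had between 0 and 2 counts in each replicate. Reads were thus found on 8 of 12 A-type genes, on 1 of 7 B-type genes (PCDHGB6) and on 1 of 3 C-type genes (PCDHGC3), and the remaining 12 gamma members had 0 counts. The same 8 A-type genes and PCDHGB6 were the 9 gamma members with an annotated 3′ end of their own, as described below, so the type of gene and the kind of end cannot be told apart.

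The C-type genes, which stand at the end of the alpha and gamma clusters and in neurons are used more uniformly than the other variable exons, had few or no reads. PCDHGC3 had 0, 4 and 0 counts, so that its mean of 0.201 TPM rested on replicate 2. There 3 reads lay on PCDHGC3-202 (0.275 TPM) and 1 on PCDHGC3-208 (0.328 TPM). PCDHGC3-208 (chr5:141508070-141511527) lies wholly past the variable exon. Its bases found in no other transcript, 141508070-141508283, lie between constant exons 2 and 3, which the gamma genes share. The read on PCDHGC3-208 therefore cannot be assigned to PCDHGC3 rather than to another gamma gene. PCDHAC1 had 0, 1 and 0 counts, while PCDHAC2, PCDHGC4 and PCDHGC5 had 0 in all 3 replicates.

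Of the alpha cluster 4 of 15 members had any read. PCDHA10 had 4, 1 and 8 counts (0.0713, 0.0211 and 0.0971 TPM) and was the only alpha member with a read in every replicate. PCDHA7 had 0, 0 and 2 counts and PCDHA5 had 0, 0 and 1. Apart from PCDHA10 in replicates 1 and 3, no alpha member exceeded 3 counts in a library.

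In the beta cluster 12 of 16 members had reads, yet none passed 3 counts in every replicate. PCDHB2 led with 11, 2 and 9 counts (0.593, 0.128 and 0.330 TPM; mean 0.350 ± 0.233, SD, n = 3), and was held below the limit by replicate 2. PCDHB13 followed with 4, 4 and 3 counts (0.174, 0.206 and 0.0889 TPM), which put it below the limit by replicate 3. PCDHB16 had 2, 2 and 4 counts. These 3 genes and PCDHB1, with 2, 1 and 1 counts, were the 4 beta members with a read in every replicate. The ranges of PCDHB2 and PCDHB13 overlapped, and so did those of PCDHB13 and PCDHB16.

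A second set of beta genes had its reads mainly or only in replicate 3. PCDHB9 had 0, 1 and 7 counts, PCDHB15 had 0, 0 and 6, PCDHB10 had 0, 0 and 5, and PCDHB12 had 0, 0 and 1. Replicate 3 had the most counts in total and the largest mitochondrial share, 25.8%, and whether either bears on these reads was not tested. The 20 genomic bases past the annotated end of PCDHB9 held 14 A, a stretch at which an oligo(dT) primer can anneal to genomic DNA or unspliced RNA, and whether its reads came from there was not tested. The remaining beta members had few reads, with 2, 0 and 2 counts for PCDHB11, 2, 1 and 0 for PCDHB7, 2, 0 and 1 for PCDHB8, and 1, 1 and 0 for PCDHB14. PCDHB3, PCDHB4, PCDHB5 and PCDHB6, which are neighbours in the locus, had 0 counts in all 3 replicates.

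Reads of a given member did not recur evenly over the replicates. Of the 26 members with reads, 11 had at least 1 read in all 3 replicates, 7 in 2 replicates and 8 in 1. The highest count per 1000000 reads fell in replicate 1 for 6 of them, in replicate 2 for 8 and in replicate 3 for 12.

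**Figure D2:**
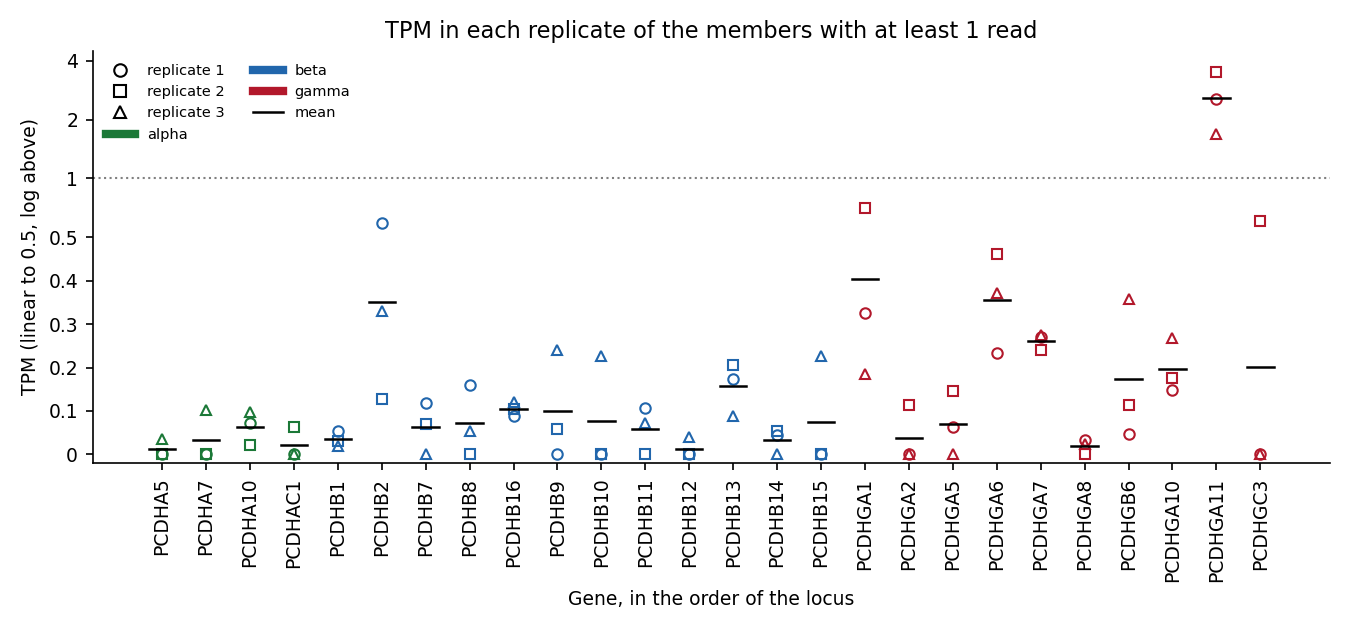
TPM in each replicate (y axis, linear to 0.5 and logarithmic above) of the 26 members with at least 1 read, in the order of the locus (x axis), with the symbols for the replicates, black bars for the mean and a dotted line at 1 TPM. PCDHGA11 is the only member above 1 TPM, and the points of most other members reach down to 0 or nearly so.

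Next it was asked whether genes that share their 3′ exons were measured differently from genes that do not. The summed TPM of the alpha cluster was 0.0713, 0.0851 and 0.235 in replicates 1, 2 and 3 (mean 0.130 ± 0.0908, SD, n = 3). That of the beta cluster was 1.34, 0.653 and 1.42 (mean 1.14 ± 0.420, SD, n = 3). That of the gamma cluster was 3.67, 6.08 and 3.17 (mean 4.31 ± 1.55, SD, n = 3). The ranges of the 3 clusters did not overlap, and the order alpha, beta, gamma was the same in each replicate. Beta exceeded alpha by 4.23, 2.94 and 2.59 on the log2 scale of summed TPM (mean 3.25 ± 0.863, SD, n = 3) and lay below gamma, with differences of -1.45, -3.22 and -1.16 (mean -1.95 ± 1.11, SD, n = 3). The exact two-sided sign-flip permutation test gave p = 0.25 for both, the smallest value that 3 replicates allow, so the design cannot reach significance. The lead of gamma over beta depended largely on PCDHGA11. Without it the summed gamma TPM was 1.12, 2.56 and 1.48 (mean 1.72 ± 0.748, SD, n = 3), which overlapped with beta, and the mean log2 difference of beta to gamma was -0.59. Averaged over members on the log2(TPM + 1) scale the differences were also much smaller, at 0.08 for beta against alpha and -0.09 for beta against gamma. With log2(TPM + 0.1) they were 0.48 ± 0.13 and -0.15 ± 0.33 (SD, n = 3), and on that scale beta lay above gamma in replicates 1 and 3, by 0.01 and 0.07, and below it in replicate 2, at -0.53. The order of beta and gamma thus changed with the scale in 2 of 3 replicates.

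**Figure D3:**
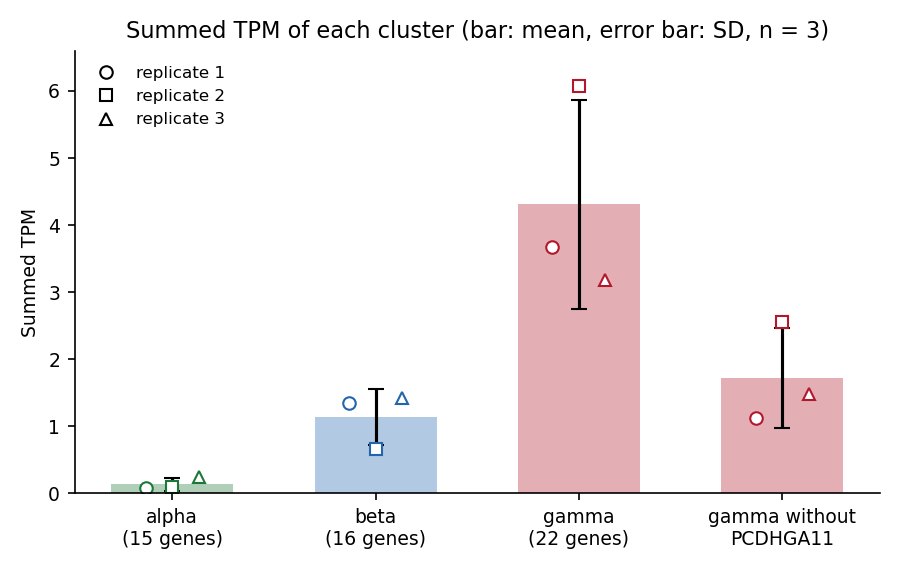
Summed TPM (y axis) of the alpha, beta and gamma clusters and of gamma without PCDHGA11, as mean (bars) ± SD (error bars, n = 3) with a point for each replicate. Gamma lies above beta in every replicate, and overlaps with it once PCDHGA11 is left out.

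Reads were found only on transcripts with exonic bases of their own. The 53 members had 130 annotated transcripts, of which 55 had no exonic base of their own, that is none outside all other listed transcripts of the strand. These 55 held 0 counts in all 3 libraries, whereas the 75 with bases of their own held all the reads. Across all genes the 76836 transcripts without a base of their own held 2.35%, 2.49% and 1.83% of the counts, so such transcripts were low but not always empty. The 27 member transcripts with reads each had at least 214 bases of their own. None of the 37 canonical alpha and gamma transcripts had its last 300 exonic bases to itself, while all 16 canonical beta transcripts did. A value of 0 for an alpha or gamma member thus cannot be read as absence of its long transcript, and the sums of the 3 clusters are sums over different kinds of transcript.

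The reads on alpha and gamma members lay on short transcripts that stop before the constant exons. Of 27 alpha transcripts with constant exons 0 held reads, against 4 of 17 that end before them, with 17 reads over the 3 libraries. Of 29 gamma transcripts with constant exons 1 held a single read, PCDHGC3-208, against 10 of 25 that end earlier, with 235 reads. The 132 reads of PCDHGA11 were all on PCDHGA11-203 (chr5:141421047-141424679), a single exon that runs 1019 bases past the end of the variable exon, while PCDHGA11-201 and PCDHGA11-202, both with constant exons, had 0. The reads of PCDHGA1 and PCDHGA6 were likewise all on PCDHGA1-201 and PCDHGA6-202, which run 1534 and 3135 bases past it. The bases past the variable exon belong to the first intron of the long transcript. PCDHGA11-203 and PCDHGA6-202 also lie within the first intron of long transcripts of gamma members upstream, such as PCDHGA1-202 (chr5:141330514-141512975). A polyadenylated short transcript thus cannot be told apart from unspliced RNA of the long transcript of the same gene or of a gene upstream.

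**Figure D4:**
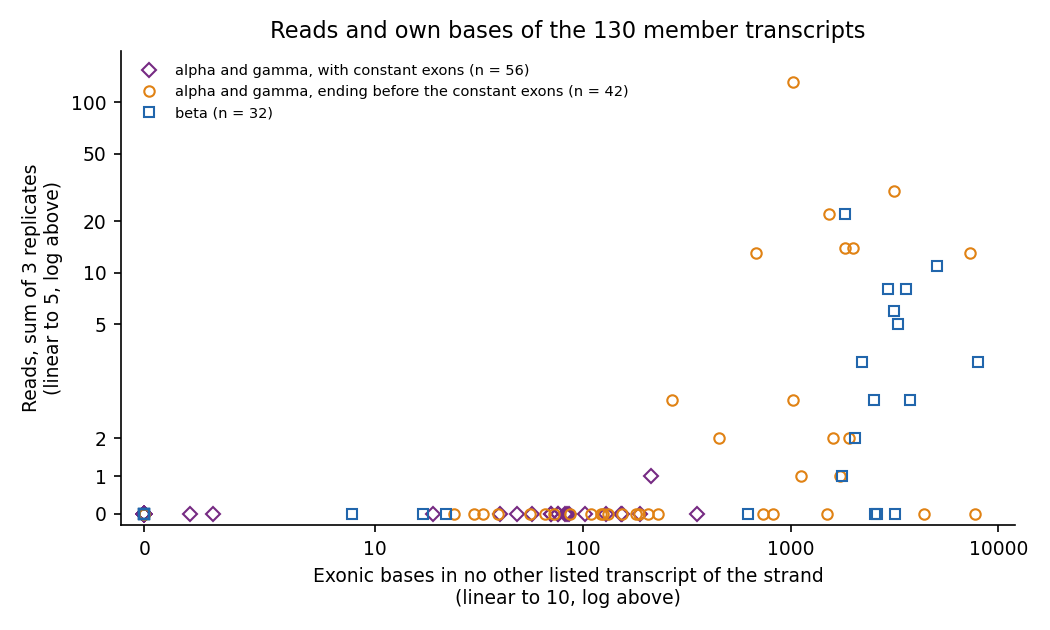
Reads summed over 3 replicates (y axis, linear to 5 and logarithmic above) against the number of bases found in no other transcript (x axis, linear to 10 and logarithmic above) for the 130 member transcripts, by kind. All transcripts with reads lie at 214 own bases or more, and of the 56 alpha and gamma transcripts with constant exons 1 has a read.

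Reads were more frequent on members that had a 3′ end of their own. Of 14 alpha and gamma members with a transcript whose last 300 exonic bases were its own, 12 had reads, the exceptions being PCDHA6 and PCDHA9, and they held 236 reads. Of the 23 without such a transcript 2 had reads, PCDHA10 and PCDHGC3, which held 17. All 9 gamma members of the first kind had reads, and so had 3 of 5 alpha members and 12 of 16 beta members. Over all protein-coding genes 75.7% of 12100 with such a transcript had at least 1 count, and 44.6% of 7826 without one.

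The splice donors at which the short transcripts continue into the intron are shown for PCDHGA11, PCDHGA1, PCDHGA6 and PCDHA10, the detected gamma members and the alpha member with the most reads. Each window of 30 bases holds the last 15 of the variable exon and the first 15 of the intron (hg38, plus strand), and capitals mark the GT that opens the intron. The windows are chr5:141423646-141423675, chr5:141333091-141333120, chr5:141376493-141376522 and chr5:140858422-140858451.
PCDHGA11 donor: ccgacaagtaatcagGTgagatttatttct
PCDHGA1 donor: gaaccattttctcagGTaaacttttgtgat
PCDHGA6 donor: cccaggcaacttcagGTgagtttctttccg
PCDHA10 donor: gaccactctaggaagGTgggttattacgtt
A GT stood at this place in 15 of 15 alpha and 22 of 22 gamma members. The short transcript that reached farthest in each member ran 33 to 9804 bases past it in the alpha cluster (median 739) and 24 to 3135 in the gamma cluster (median 239).

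Cleavage at a poly(A) site is usually directed by a hexamer, AATAAA or ATTAAA, shortly before the end of the transcript. One of the pair stood in the last 50 bases of 9 of the 14 short alpha and gamma transcripts with reads. PCDHGA11-203, PCDHGA1-201, PCDHGA6-202 and PCDHA10-203 were among these. A hexamer also stood in 7 of the 28 short transcripts without reads. Most of those 28 had fewer than 214 bases of their own, the least of any member transcript with reads. The sets thus differ in more than their reads, and whether the hexamer goes with reads was not tested. The hexamer stood in 37 of 37 canonical alpha and gamma transcripts and in 13 of 16 canonical beta transcripts. Of 19351 canonical transcripts of protein-coding genes 77.5% had it. In the 20 bases past the end of PCDHGA11-203 there was 1 A. Where its reads lay within the exon was not measured, so priming at a run of A inside it was not tested.

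Most promoters of clustered protocadherins, though not all, are known to hold a conserved sequence element with the core CGCT, at which CTCF binds. RefSeq promoters (GRCh38.p14, 250 bases before to 50 after the start) were matched by symbol for 47 of the 53 members. CGCT was found on either strand in 46 of 47 (97.9%), and in 70.0% of all 35097 promoters, and the exception was PCDHA9. On the forward strand between 100 and 30 bases before the start it was found in 43 of 47 (91.5%), that is in 12 of 13 alpha, 12 of 14 beta and 19 of 20 gamma promoters, against 21.6% of all promoters. Where a promoter had several matches in this span, the one nearest the start was used. The core then lay a median of 51.5 bases before the start in alpha promoters, 63.0 in beta and 49.0 in gamma. The ranges were 38 to 81, 38 to 84 and 38 to 95 bases. It was there in 24 of 25 members with reads and in 19 of 22 without, so these letters did not separate them. A match of these letters is a description and not a measured site.

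**Figure D5:**
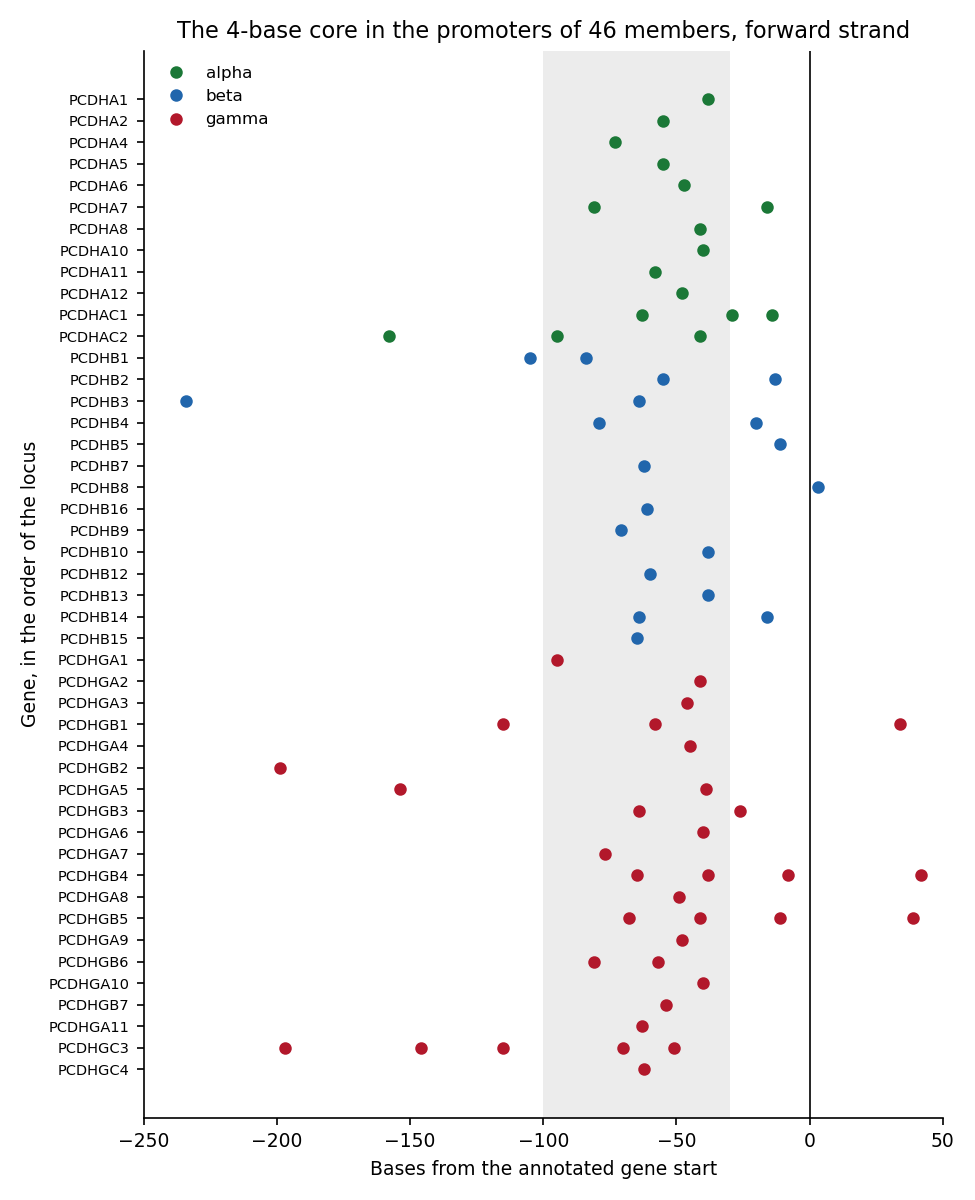
Position of each match of the core in bases from the annotated start (x axis) for the 46 members with a match, in the order of the locus (y axis), with the span from 100 to 30 bases before the start shaded. In 43 members a match lies in the shaded span.

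The surrounding sequence differed between the clusters. The 40 bases around the core are shown for the gamma members detected, the alpha member with the most reads, and 3 beta members with reads, with the core in capitals (GRCh38.p14, plus strand).
PCDHGA11 promoter, chr5:141420970-141421009: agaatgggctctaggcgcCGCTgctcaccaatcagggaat
PCDHGA1 promoter, chr5:141330401-141330440: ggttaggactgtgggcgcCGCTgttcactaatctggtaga
PCDHGA6 promoter, chr5:141373833-141373872: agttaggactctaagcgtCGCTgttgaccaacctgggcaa
PCDHA10 promoter, chr5:140855839-140855878: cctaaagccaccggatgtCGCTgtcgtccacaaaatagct
PCDHB2 promoter, chr5:141094542-141094581: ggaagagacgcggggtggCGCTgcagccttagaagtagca
PCDHB13 promoter, chr5:141213863-141213902: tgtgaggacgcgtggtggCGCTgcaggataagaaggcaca
PCDHB9 promoter, chr5:141187072-141187111: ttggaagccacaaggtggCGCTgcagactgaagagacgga
The words of 8 bases found in the largest number of member promoters, searched on both strands, were GTGGCGCT, GCGCCACC and TGGCGCTG, which overlap one another and stood in 13 promoters each. The first of these was in 13 of 14 beta promoters, in 0 alpha and 0 gamma promoters, and in 1.15% of all promoters. The second was in 13 beta promoters and 2.23% of all, and the third in 12 beta promoters, 1 gamma promoter and 1.91% of all. A longer word, GGTGGCGCTGCA, chosen after the data had been seen, was in 10 of 14 beta promoters and 0.0427% of all.

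Other protocadherins and the neighbours of the cluster are set beside these levels. Of 14 non-clustered protocadherins, which are single genes at other places in the genome, 9 were detected and 6 reached a mean of 1 TPM. PCDH7 was highest, with 1379, 1181 and 1220 counts (mean 40.7 ± 10.9 TPM, SD, n = 3), followed by PCDH10 (29.7 ± 8.06), PCDH9 (20.6 ± 5.79) and PCDH17 (13.03 ± 4.82). Each of these lay above the sum of all gamma members in every replicate. The values are not of like kind. Each of these single genes has a transcript whose last 300 exonic bases are its own. The gamma sum rests on short transcripts, apart from 1 read, and cannot show the level of the long ones. Of the protein-coding genes between members in the locus, TAF7, a subunit of the general transcription factor TFIID on the opposite strand between the beta and gamma clusters, had 3433, 3398 and 4205 counts. SLC25A2, a mitochondrial ornithine carrier within the same interval, had 0 in all 3 replicates.

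Of 12 factors of promoter choice 8 were detected and 10 reached a mean of 1 TPM. The cohesin subunits SMC3 and RAD21 were high, at 508 ± 205 and 318 ± 39.3 TPM (SD, n = 3). CTCF had 20, 12 and 23 counts (1.24 ± 0.382 TPM), a value below that of PCDHGA11 on the TPM scale in replicates 1, 2 and 3. It has 17 listed transcripts, and whether reads on bases that they share went uncounted was not tested. SMCHD1, a silencing protein known to act on clustered protocadherins, had 39.7 ± 2.40 TPM. SMC1A, a further cohesin subunit that dividing cells need, and DNMT3B were listed at 0 counts in every replicate, so a 0 in these tables cannot be read as absence of a gene's RNA.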

How the data were processed

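RNA-seq was analysed in 3 HEK293T replicates of 1 condition, grouped by their labels. Per the submitters' processing notes, reads were trimmed with Trimmomatic 0.38.0, aligned with HISAT2 2.2.1 and counted with featureCounts; settings for strand and for reads on several transcripts, and the annotation release, are not given in the sources used here. The authors deposited, for each of 247541 transcripts, raw counts, a transcript length in bases and TPM, and recomputing the TPM from counts and lengths gave the deposited values. Because 3′ reads do not grow with length, division by length lowers long transcripts. Identifiers without version were matched to GENCODE v44 (223558 matched), and deposited counts and TPM were summed per gene. Of 130 member transcripts 107 had the annotated length, and 3 of the other 23 held reads. The replicate was the unit for SDs and for the exact permutation test. Named were all beta members with reads or without, detected alpha and gamma members, filled up to 3 per cluster by mean TPM, and the C-type genes. PCDHGA2, PCDHGA5, PCDHGA7, PCDHGA8, PCDHGA10, PCDHGB6, PCDHA5, PCDHA6 and PCDHA9 were added after their values were seen, as was the word of 12 bases. Members, gene lists and tests were chosen with earlier results of these data known. Alternatives were other limits for detection and TPM, no division by length, mitochondrial genes left out, protein-coding transcripts only, other lengths of 3′ end, other scales for the cluster differences, each replicate left out and, added after seeing the data, PCDHGA11 left out. The summing, the detection call and the search for own bases were tested on simulated data, and the word search was not. Python 3.11.15, numpy 2.4.6, pandas 2.3.3, scipy 1.17.1 and matplotlib 3.10.9 were used.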

Additional observations from a re-analysis of the deposited data

How the results depend on the processing

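Both mean log2 differences between the clusters kept their direction under every alternative run, but single replicates did not: beta lay above gamma in replicate 1 without PCDHGA11, and in replicates 1 and 3 on the mean of log2(TPM + 0.1) over members, where the mean difference was -0.15 and the exact permutation p was 1.0. The log2 difference of beta to alpha ranged from 2.77 to 3.59 and that of beta to gamma from -2.34 to -1.31 when each replicate was left out, and in counts per 1000000, without division by length, they were 2.37 and -1.76. The sums themselves became 0.727, 3.40 and 10.98 counts per 1000000 for alpha, beta and gamma. When mitochondrial genes were excluded and TPM scaled anew, alpha was at 0.205 TPM, beta at 1.68 and gamma at 5.88. Leaving out each replicate put the alpha sum between 0.0782 TPM, without replicate 3, and 0.160. Counts of detected members depended on the limit: with at least 1 count in every replicate they were 1, 4 and 6 for alpha, beta and gamma, with over 3 in the mean 1, 2 and 6, and with over 10 in every replicate 0, 0 and 1. Leaving out replicates gave 0 to 1 for alpha, where PCDHA10 entered without replicate 2, 0 to 1 for beta, where PCDHB2 entered without replicate 2 and PCDHB13 without replicate 3, and 3 to 4 for gamma. With a mean TPM above 0 in place of at least 1, the members were 4, 12 and 10, and with at least 10 there were 0 in gamma. Without PCDHGA11, the gamma sum was 1.72 TPM. Own 3′ ends were found in 0 canonical alpha, 0 gamma and 16 beta transcripts over the last 100 bases, and in 0, 0 and 14 over the last 1000. No fit with a replicate block was made, since there was a single condition, and the cluster differences were already taken within each library. Most members rest on fewer than 10 reads a library, so differences among them were not detectable at this depth.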

Other observations

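Among 24 lncRNA genes annotated within the locus 3 had reads. ENSG00000288095, which lies between TAF7 and the first gamma gene, had 11, 9 and 43 counts in replicates 1, 2 and 3, so it was detected and highest in replicate 3. ENSG00000272070, between it and PCDHGA1, had 0, 3 and 8 counts, and PCDHB18P, a beta protocadherin pseudogene listed as lncRNA, had 6, 0 and 0. Of the genes listed as pseudogenes 2 had reads, PCDHGB8P with 2, 0 and 0 counts and ENSG00000277795 with 0, 0 and 1. These genes were chosen after their values were seen.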
